A study of Mus musculus with 6 samples.

Results

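The collagen hydroxylases and procollagen chaperones examined here are the 10 mouse genes P4ha1, P4ha2, P4ha3, P4hb, Plod1, Plod2, Plod3, Serpinh1, P3h1 and Crtap. They were found by gene symbol among the 24061 Entrez gene IDs of a table of raw read counts, and all 10 were present and passed the filter on low counts. RNA was sequenced from cultured resident fibroblasts of fibrotic lungs of TGF-alpha transgenic mice. Cells of the control group (libraries 1 to 3) received a stealth control siRNA, and cells of the other group (libraries 4 to 6) a stealth siRNA against Wt1, which encodes a zinc finger transcription factor. The transgene was therefore carried by both groups, with n = 3 libraries each. Control libraries are written C1, C2 and C3, and Wt1 siRNA libraries W4, W5 and W6. The sources used here give neither the promoter of the transgene nor the age of the mice nor the time after transfection. Nothing in the labels states that libraries of 1 group are separate cultures or mice. The p-values therefore reflect the spread between these libraries alone, which may be technical.

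Procollagen chains are modified inside the endoplasmic reticulum before they fold into a triple helix. Prolyl 4-hydroxylase, built from catalytic alpha subunits (P4ha1, P4ha2 or P4ha3) and the protein disulfide isomerase P4hb, makes the 4-hydroxyproline that stabilises the helix. Lysyl hydroxylases (Plod1, Plod2, Plod3) make the hydroxylysine used for sugar attachment and crosslinks. A complex of P3h1, Crtap and the cyclophilin encoded by Ppib 3-hydroxylates single prolines, and Serpinh1, known as Hsp47, is a chaperone that binds folded procollagen. The hydroxylases need iron, ascorbate and 2-oxoglutarate, and in fibrotic tissue these genes are known for their part in collagen deposition and crosslinking.

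After Wt1 siRNA, P4ha3 was 2.23-fold lower, P3h1 1.32-fold higher and P4ha1 1.28-fold higher, while the other 7 genes did not pass the test. Changes were tested with edgeR's quasi-likelihood test on all 14190 genes that passed the filter, with Benjamini-Hochberg adjustment over all of them and a threshold of 0.05. By this rule 9.05% of all genes tested were higher and 10.3% lower after Wt1 siRNA, 19.3% in either direction. Scaling by library size alone turned the split of 1284 higher and 1459 lower genes into 855 and 1829, with a median log2 fold change of -0.08 over all genes. Without W4 there were 578 higher and 785 lower genes, and without W5 836 higher and 1071 lower. Of the 10 genes, 2 were higher and 1 lower, 3 in all. The median log2 fold change was 0.14 for the 10 genes and 0.00349 for all genes tested. The fall of P4ha3 passed under all 13 alternatives tried, whereas the rises of P4ha1 and P3h1 did not. No gene of the 10 was higher past the threshold when reads were scaled by library size alone, or without C1, C3, W4 or W5 (0 in each case).

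Total counts were 26.1 to 32.1 (in units of 1e6) per library, and the lowest count of any of the 10 genes in a library was 395. The siRNA target Wt1 stood at 48.8, 55.7 and 51.5 counts per 1e6 (CPM, TMM-scaled) in the controls and at 11.4, 8.63 and 7.92 CPM after Wt1 siRNA (log2 fold change -2.48 ± 0.16, adjusted p = 5.98e-06). All 10 fibroblast markers were detected, of which Col1a1, Col1a2, Dcn, Lum and Vim were higher and Col3a1 and Pdgfra lower. Their summed level was 21215 to 30463 CPM in the controls and 32971 to 40199 CPM after Wt1 siRNA, but without Col1a1 and Col1a2 it was 10121 to 12468 and 9432 to 9752 CPM, the opposite order. Of 8 smooth muscle and pericyte markers, Acta2 alone was called, higher. Their sum was 3094 to 3724 and 4155 to 6134 CPM with Acta2, and 364 to 410 and 323 to 399 CPM without it. Of 10 epithelial markers, Krt19 was higher, Krt18 lower and Scgb1a1 at 0. Their sum was 59.9 to 82.8 and 77.6 to 89.2 CPM with Krt19, and 47.2 to 64.4 and 41.7 to 47.4 CPM without it. Of 7 mesothelial markers, Msln, Krt19 and Nkain4 were higher and Upk3b, Lrrn4 and Wt1 itself lower, with sums of 227 to 281 and 149 to 193 CPM (175 to 225 and 141 to 184 CPM without Wt1). Sums were 105 to 130 and 88.6 to 108 CPM for 8 endothelial markers, of which Kdr was lower, and 40.1 to 49.8 and 31.4 to 37.3 CPM for 8 leukocyte markers, of which Cd14 was lower. The part of these shifts in the results was not tested. In bulk RNA, fewer cells of a type and less RNA per cell cannot be told apart.

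The genes differed widely in level. Levels are compared between genes only per length, as counts per kilobase of the longest GENCODE transcript scaled to 1e6 in each library. P4hb was the most abundant at 2924 ± 42.8 in the controls (SD, n = 3), followed by Serpinh1 at 1261 ± 149, Plod2 at 806 ± 83.4 and P4ha1 at 681 ± 39.5. P4ha2 (329 ± 37.2), Crtap (322 ± 23.3), Plod1 (243 ± 30.7) and Plod3 (194 ± 30.3) lay in the middle. P3h1 at 109 ± 14.7 and P4ha3 at 46.6 ± 1.04 were the least abundant. The order was the same after Wt1 siRNA, where levels per length ran from 3246 ± 115 for P4hb and 1532 ± 96.1 for Serpinh1 to 136 ± 5.20 for P3h1 and 19.8 ± 2.86 for P4ha3. P4ha2 and Crtap overlapped in both groups, Plod1 and Plod3 in the controls, and Plod2 and P4ha1 after Wt1 siRNA; all other neighbours in the order were apart in their group. The 10 genes together took 0.709% ± 0.0400 of the counts in the controls and 0.785% ± 0.0276 after Wt1 siRNA.

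**Figure D1:**
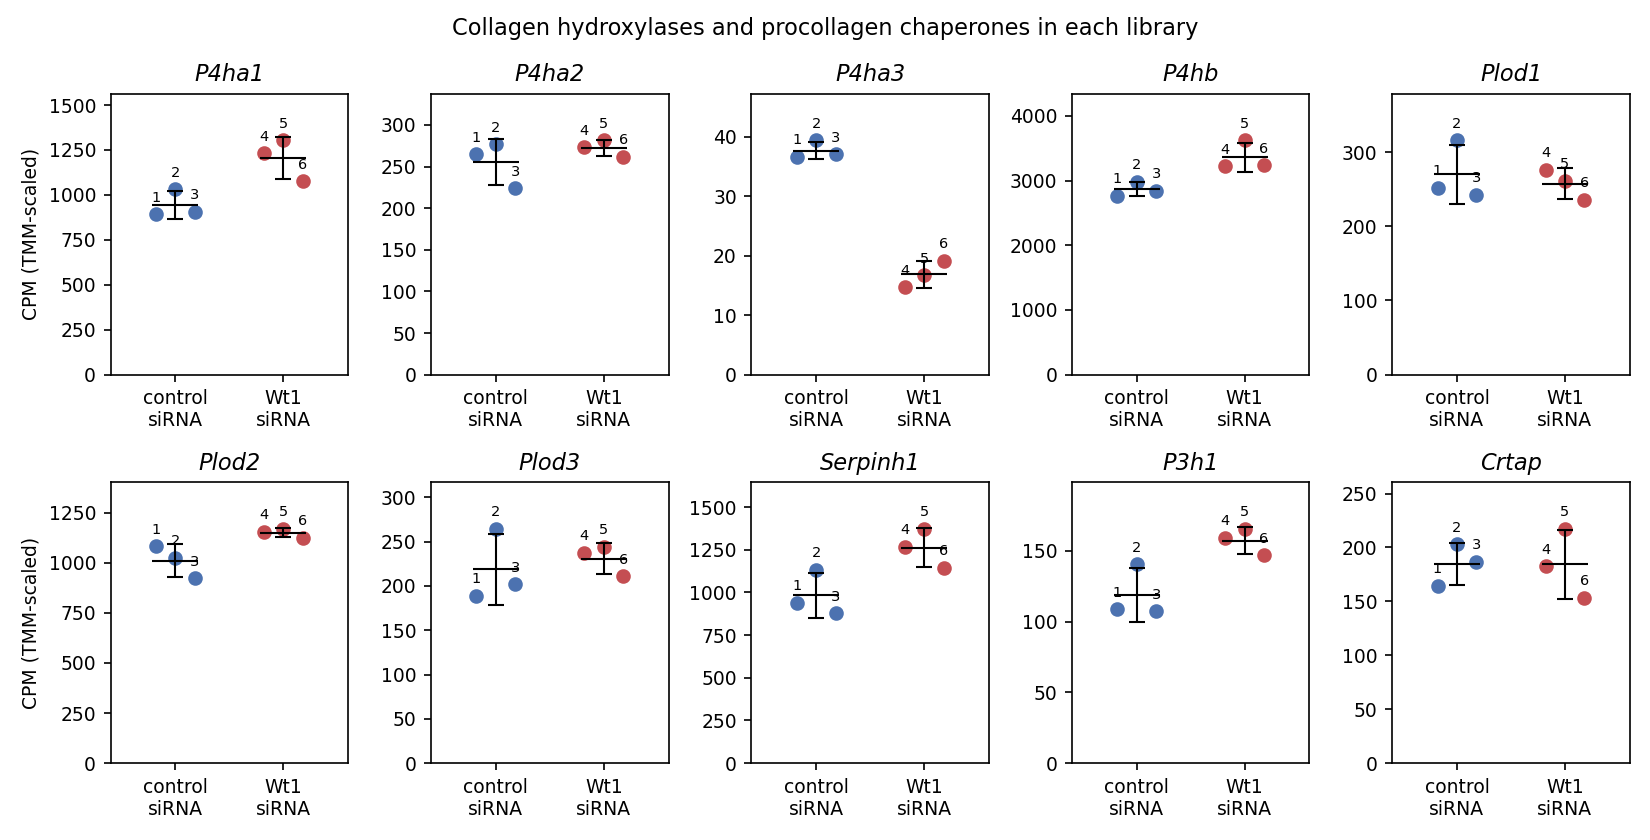
CPM (TMM-scaled, vertical axis from 0) of each of the 10 genes in every library, with the library number above its point; black lines are group means and bars the SD (n = 3). P4ha3 shows controls at 36.6 to 39.4 CPM and Wt1 siRNA libraries at 14.7 to 19.2 CPM, while in the other panels the groups lie close together or overlap.

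The alpha subunits of prolyl 4-hydroxylase went in different directions. P4ha3 (gene ID 320452, GRCm38 chromosome 7, 100285489 to 100319701, plus strand), the least abundant alpha subunit, had 36.6, 39.4 and 37.1 CPM in control libraries 1 to 3 and 14.7, 16.7 and 19.2 CPM in Wt1 siRNA libraries 4 to 6. Every Wt1 siRNA library was below every control, and the spread within groups was small. The log2 fold change was -1.16 ± 0.14 (SE, n = 3 per group, edgeR, adjusted p = 2.06e-04). Over the alternatives the log2 fold change ranged from -1.26 to -1.07 and the adjusted p from 1.70e-11 (DESeq2) to 0.00318 (without W4).

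P4ha1 (gene ID 18451, chromosome 10, 59323197 to 59373304, plus strand), the main alpha subunit of most cells, had 891, 1032 and 907 CPM in the controls and 1232, 1304 and 1077 CPM after Wt1 siRNA. The groups did not overlap, but C2 and W6 were close to each other. The log2 fold change was 0.35 ± 0.11 (adjusted p = 0.0399). The call was lost without C1 (adjusted p = 0.116), C3 (0.111), W4 (0.158) or W5 (0.141), and with library size scaling (0.0808). P4ha2 (chromosome 11, 54100924 to 54131668) had 265, 277 and 224 CPM in the controls and 273, 281 and 262 CPM after Wt1 siRNA, so that its groups overlapped. Its log2 fold change of 0.09 had a 95% interval of -0.14 to 0.33 and did not pass (adjusted p = 0.612).

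P4hb, the disulfide isomerase that is also the beta subunit (chromosome 11, 120560298 to 120573253), had 2770, 2986 and 2845 CPM in the controls and 3221, 3623 and 3235 CPM after Wt1 siRNA. All Wt1 siRNA libraries were above all controls, but the log2 fold change of 0.23 ± 0.09 did not pass (adjusted p = 0.114, and 0.0759 to 0.338 over the alternatives).

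The makeup of the alpha subunit pool was compared within each library, which needs no scaling between libraries. P4ha1 made up 62.5%, 64.8% and 66.2% of the summed P4ha transcripts per length in the controls and 70.6%, 71.0% and 68.3% after Wt1 siRNA. P4ha3 made up 4.40%, 4.23% and 4.63% in the controls and 1.44%, 1.56% and 2.08% after Wt1 siRNA. For both genes the groups did not overlap. The differences, 5.51 and -2.73 percentage points, each had an exact permutation p of 0.1, the smallest that 3 against 3 libraries can give (two-sided; 0.18 after Benjamini-Hochberg adjustment over 9 ratios). The share of P4ha2 was 31.1% ± 1.97 and 28.3% ± 1.18, with overlapping groups (exact p = 0.2, adjusted 0.3). Shares of a library add up to the whole, so the shares of these subunits, and those of Plod below, are not independent. P4hb per summed P4ha was 2.77 ± 0.146 in both groups, and the exact p of its log2 difference was 1.0 (adjusted 1.0).

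**Figure D2:**
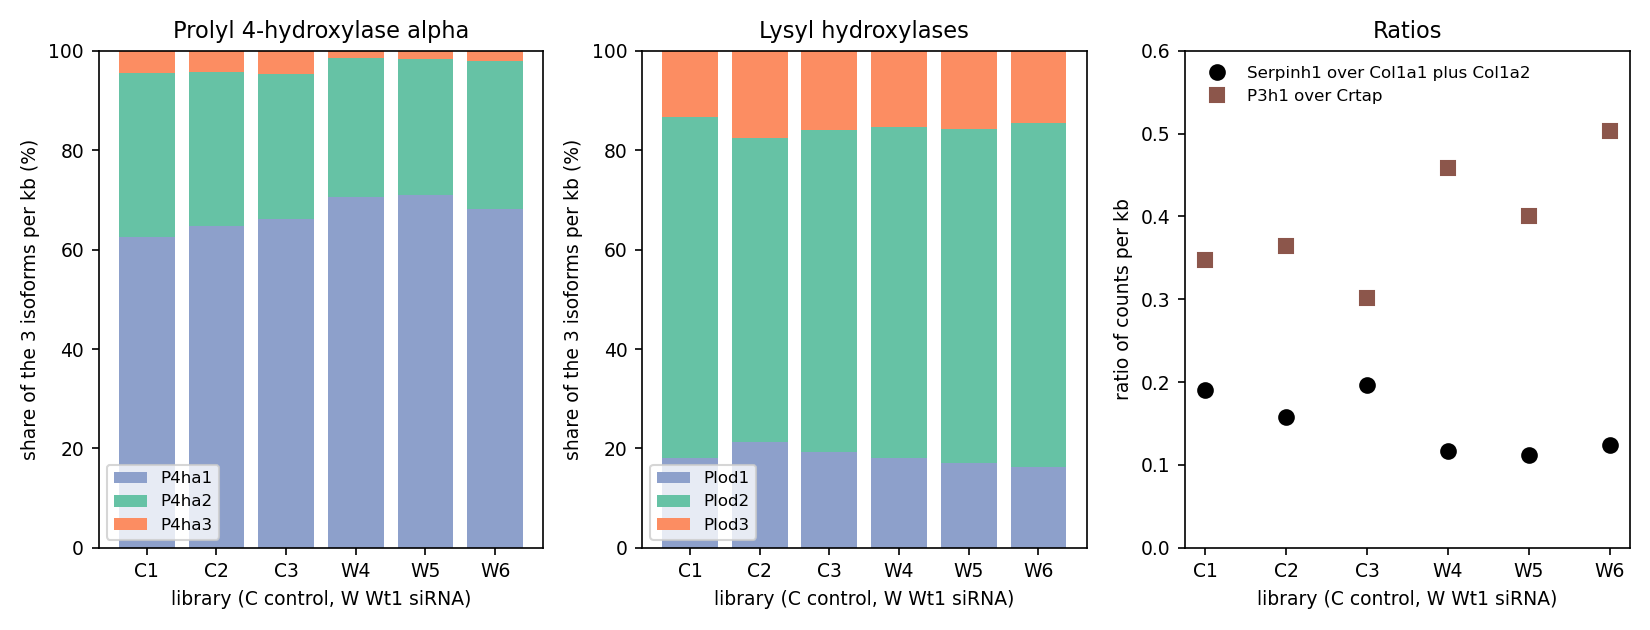
Left and middle, stacked shares (percent of counts per kilobase) of the P4ha and Plod isoforms in each library; right, Serpinh1 over the sum of Col1a1 and Col1a2, and P3h1 over Crtap, as ratios of counts per kilobase. C marks control and W Wt1 siRNA libraries; the P4ha3 band narrows from 4.23% to 4.63% in the controls to 1.44% to 2.08% after Wt1 siRNA.

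Of the 3-hydroxylation complex, P3h1 rose and its partner Crtap did not pass. P3h1 (formerly Lepre1, gene ID 56401, chromosome 4, 119232915 to 119248977, plus strand), the catalytic subunit, had 109, 141 and 107 CPM in the controls and 159, 166 and 147 CPM after Wt1 siRNA. The groups did not overlap, with C2 nearest to the Wt1 siRNA libraries. The log2 fold change was 0.40 ± 0.12 (adjusted p = 0.0405). The call was lost without C1 (0.135), C3 (0.145), W4 (0.142), W5 (0.120) or W6 (0.0505), and with library size scaling (0.0830).

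Crtap, the non-catalytic subunit that P3h1 needs for its stability (chromosome 9, 114375131 to 114390712), had 165, 203 and 187 CPM in the controls and 182, 217 and 153 CPM after Wt1 siRNA. Its groups overlapped, the log2 fold change was -0.00354 with a 95% interval of -0.30 to 0.29, and its sign changed between alternatives. Per length, P3h1 over Crtap was 0.347, 0.364 and 0.302 in the controls and 0.459, 0.400 and 0.503 after Wt1 siRNA. These groups did not overlap; the difference of 0.43 on the log2 scale had the smallest exact permutation p of 0.1 (adjusted 0.18). Ppib, the third component, had 278 ± 29.5 and 325 ± 40.1 CPM and did not pass (log2 fold change 0.23 ± 0.12, adjusted p = 0.226).

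None of the 3 lysyl hydroxylases passed the edgeR test in either direction, with an unadjusted p of 0.589 for Plod1, 0.0810 for Plod2 and 0.568 for Plod3, and none passed with DESeq2 or limma-voom. Plod2, which hydroxylates lysines of the telopeptides and so favours pyridinoline crosslinks (chromosome 9, 92539636 to 92608428), had 1082, 1026 and 923 CPM in the controls and 1155, 1170 and 1125 CPM after Wt1 siRNA. The Wt1 siRNA libraries lay above the controls, but the log2 fold change of 0.19 had a 95% interval of -0.03 to 0.40 (adjusted p = 0.217). Plod1, which acts on lysines of the helix (chromosome 4, 147909753 to 147936776), had 252, 316 and 243 CPM in the controls and 276, 261 and 236 CPM after Wt1 siRNA. Its log2 fold change was -0.07 (95% interval -0.33 to 0.20, adjusted p = 0.758), and 0.06 without C2.

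Plod3, which also transfers sugars to hydroxylysine (chromosome 5, 136987019 to 136996646), had 189, 264 and 202 CPM in the controls and 237, 244 and 211 CPM after Wt1 siRNA. The groups overlapped, with a log2 fold change of 0.08 (95% interval -0.21 to 0.37, adjusted p = 0.743) that was -0.00492 with library size scaling and -0.01 without C1. Its exons share 529 bases with Znhit1 on the opposite strand, which had 14.3 and 13.8 CPM, and exons of Plod2 share 346 bases with the antisense gene Gm38391. No source used here gives the strand setting of the counting, so reads of these partners cannot be told apart there. Plod2 was the main isoform, with 64.9% ± 3.71 of the summed Plod transcripts per length in the controls and 67.7% ± 1.29 after Wt1 siRNA (exact p = 0.3, adjusted 0.386). The share of Plod1 was 18.03%, 21.3% and 19.3% in the controls and 18.01%, 17.0% and 16.4% after Wt1 siRNA, groups that were only just apart (exact p = 0.1, adjusted 0.18). Plod3 held 15.6% ± 2.11 and 15.1% ± 0.619 (exact p = 0.8, adjusted 0.9).

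Serpinh1 was near the threshold. Serpinh1 (gene ID 12406, chromosome 7, 99345375 to 99353239, minus strand) had 939, 1132 and 878 CPM in the controls and 1266, 1373 and 1144 CPM after Wt1 siRNA. The groups were apart, but C2 and W6 almost met. The log2 fold change of 0.36 ± 0.12 did not pass (adjusted p = 0.0523). It passed with DESeq2 (0.0260), limma-voom (0.0391), robust shrinkage (0.0494) or no low-count filter (0.0291), and without C2 (log2 fold change 0.47, adjusted p = 0.0106) or W6 (0.43, adjusted p = 0.0437). Serpinh1 and P4ha3, the gene that fell, lie 0.932 Mb apart on chromosome 7.

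The type I chains that these proteins serve rose. Col1a1 and Col1a2, the chains of type I procollagen, were 2.18-fold and 1.67-fold higher (log2 fold changes 1.13 ± 0.19 and 0.74 ± 0.14, adjusted p = 0.00172 and 0.00365). Serpinh1 per type I chain (counts per kilobase of Serpinh1 over the sum of Col1a1 and Col1a2) was 0.191, 0.157 and 0.197 in the controls and 0.117, 0.112 and 0.124 after Wt1 siRNA. Every Wt1 siRNA library was lower than every control; the difference of -0.62 on the log2 scale had the smallest exact permutation p of 0.1 (adjusted 0.18).

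**Figure D3:**
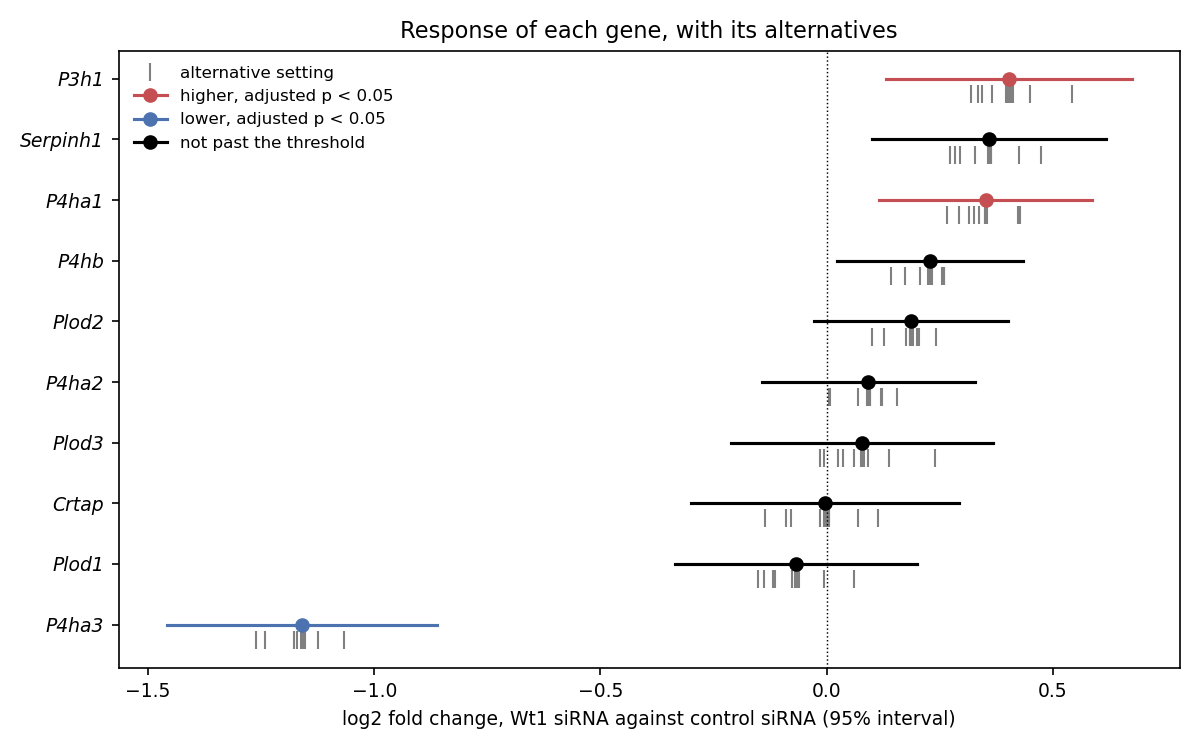
Log2 fold change (Wt1 siRNA against control siRNA, horizontal axis) of each gene with its 95% interval; grey ticks are the values under the 13 alternatives. P4ha3 lies at -1.16 with all its ticks between -1.26 and -1.07, and the ticks of Plod1, Plod3 and Crtap fall on both sides of 0.

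Of these genes 5, P4ha1, P4hb, Plod2, Serpinh1 and P3h1, had all Wt1 siRNA libraries above all controls, and P4ha3 had them all below. Among all genes tested, 18.1% had non-overlapping groups with higher and 18.3% with lower Wt1 siRNA libraries. Against the mean of their group on the log2 CPM scale, 2 genes were above it in C1 (median -0.07), 10 in C2 (0.14) and 1, Crtap, in C3 (-0.11). In W4 7 genes were above it (0.01), in W5 9 (0.08) and in W6 1, P4ha3 (-0.11). Col1a1 was also highest among the controls in C2, at 11040 CPM against 6554 and 6352 CPM, and lowest of its group in W6, at 14932 CPM against 17372 and 19958 CPM. Col1a2, Col4a1, Col4a2, Col5a1, Col5a2, Col6a1, Col6a2 and Col11a1 were likewise highest among the controls in C2 and lowest of their group in W6. Col3a1 was highest in C2 but lowest of its group in W5. Of the procollagen chains counted below, only Col12a1, Col6a3 and Col5a3 went the other way. Col12a1 was lowest among the controls in C2 (1010 CPM) and highest of its group in W6 (1042 CPM). So were Col6a3 (143 and 177 CPM) and Col5a3 (20.3 and 50.7 CPM). The share of all genes above their group mean in each library was not counted.

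**Figure D4:**
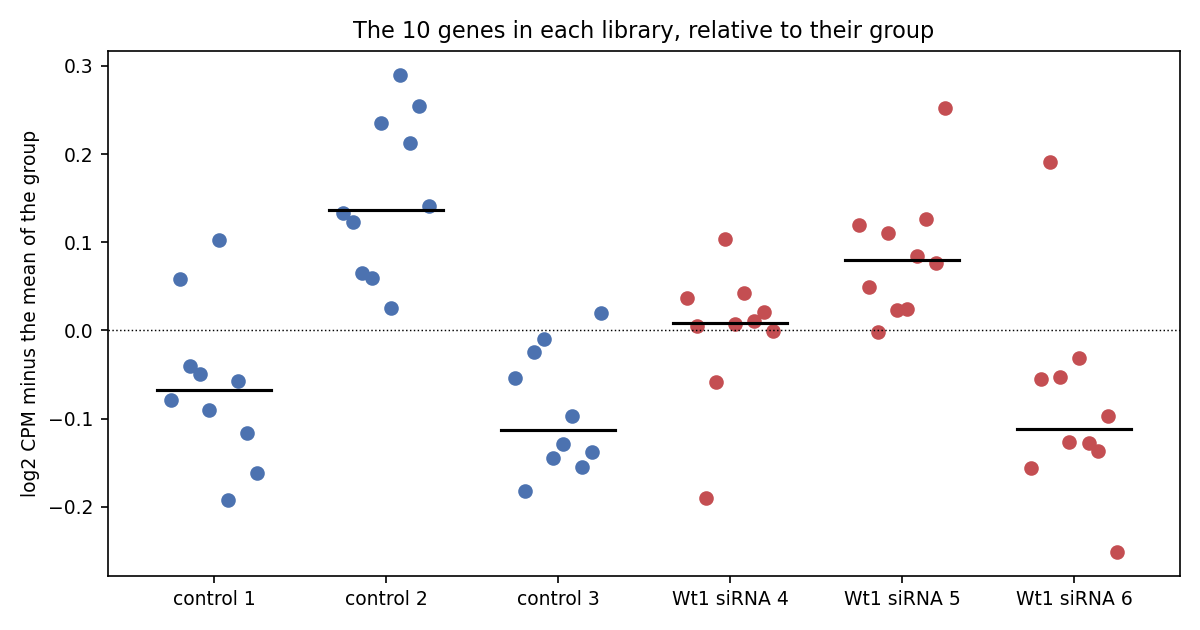
Log2 CPM of each of the 10 genes minus the mean of its group (vertical axis) in each library; black bars are medians over the genes. Points above 0 number 2 in C1, 10 in C2 and 1 in C3, and 7 in W4, 9 in W5 and 1 in W6.

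The siRNA target is a transcription factor, so the promoters of P4ha3, which fell, of P4ha1 and P3h1, which rose, and of Serpinh1, next to the threshold, are shown. Each line gives the 250 bases before the start site in 5′ to 3′ direction of the gene, from RefSeq on GRCm38.p6. Capitals mark ACGTG on either strand, a form of the core of the hypoxia response element. The other form of this core, GCGTG, was not searched, and it stands unmarked in the lines of P4ha1 and P3h1. The positions are chr7:100285270-100285519 (plus strand) for P4ha3, chr10:59323046-59323295 (plus) for P4ha1, chr4:119232665-119232914 (plus) for P3h1 and chr7:99353240-99353489 (minus) for Serpinh1. For P4ha3 and P4ha1 the start site of the window lies inside the gene span given above. The ends of their lines, with the capitals of P4ha1, therefore fall within that span.
P4ha3: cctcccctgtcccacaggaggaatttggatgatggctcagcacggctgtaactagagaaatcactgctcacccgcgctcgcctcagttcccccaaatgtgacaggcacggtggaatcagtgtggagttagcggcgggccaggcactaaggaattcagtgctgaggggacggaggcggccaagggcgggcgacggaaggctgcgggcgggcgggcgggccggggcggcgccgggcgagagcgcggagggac
P4ha1: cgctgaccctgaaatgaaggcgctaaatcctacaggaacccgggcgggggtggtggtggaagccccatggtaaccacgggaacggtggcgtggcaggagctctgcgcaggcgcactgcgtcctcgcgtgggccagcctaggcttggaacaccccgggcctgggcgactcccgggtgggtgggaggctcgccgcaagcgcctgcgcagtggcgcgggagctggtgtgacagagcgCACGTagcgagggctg
P3h1: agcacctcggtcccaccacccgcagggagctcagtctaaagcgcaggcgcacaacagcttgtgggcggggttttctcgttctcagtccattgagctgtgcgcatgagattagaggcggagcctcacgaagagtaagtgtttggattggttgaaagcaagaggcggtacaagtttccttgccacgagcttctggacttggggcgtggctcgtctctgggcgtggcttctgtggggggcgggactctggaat
Serpinh1: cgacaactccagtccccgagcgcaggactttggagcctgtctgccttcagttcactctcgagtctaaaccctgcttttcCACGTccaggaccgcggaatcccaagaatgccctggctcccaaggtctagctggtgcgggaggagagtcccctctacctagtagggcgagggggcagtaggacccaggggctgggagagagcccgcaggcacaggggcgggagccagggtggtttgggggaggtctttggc

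These stretches are rich in G and C: 67.2% for P4ha3, 69.6% for P4ha1, 58.4% for P3h1 and 63.6% for Serpinh1. The median over the same stretch of all 32851 RefSeq promoter windows was 52.4%. RefSeq windows from 250 bases before to 50 after the start were matched for 9 of the 10 genes, all but Plod2, with 10 windows in all since P3h1 has 2. GCGTGGGAG and GCGGGGGCG, letters of WT1 and EGR type sites, were found, on either strand, in 0 of the 10 windows and in 0.472% and 2.91% of all windows. With shares this low, 0 matches would be usual for 10 windows of any genes. Other forms of such sites were not searched, so the 0 does not show that they are absent. ACGTG was found in 6 of the 10 windows, those of P4ha1, P4ha2, P4hb, Plod3, Serpinh1 and the downstream start of P3h1, and in 19.6% of all windows. GAANNTTC, a part of the heat shock element, was found in 1 window, that of Plod1, and in 7.86% of all. No motif overlaps another in the printed lines. A match is a run of letters and not a measured binding site.

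P4ha1, P4ha2 and Plod2 are known targets of hypoxia-inducible factors, and a list of other hypoxia-related genes was therefore counted. Of the 22 genes 0 were higher and 6 (27.3%) lower (edgeR), against 9.05% and 10.3% of all genes tested. The median log2 fold change was -0.20, with 18 negative values. The list holds Hif1a and Epas1, which encode such factors themselves. Epas1 was 1 of the 6 lower genes (log2 fold change -0.58 ± 0.14, adjusted p = 0.0118). The list is not a full one of targets, and Ero1a, which rose, was counted with the folding genes instead. None of the 22 was higher with DESeq2 or limma-voom. At an unadjusted p below 0.05 (edgeR) 1 was higher and 9 lower, against 4551 of all 14190 genes tested in either direction. Ndrg1, a differentiation and stress gene, fell by 0.91 ± 0.11 on the log2 scale (adjusted p = 2.51e-04), Egln3, a prolyl hydroxylase that acts on the hypoxia factors, by 0.77 ± 0.13 (0.00160), and Pdk1, a kinase that inhibits pyruvate dehydrogenase, by 0.55 ± 0.12 (0.00747, and 0.0520 without W4). The number of lower genes was 3 without C3, 2 without W4 and 9 with library size scaling.

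A list of partners of collagen modification was split. It also holds genes that do not themselves modify collagen, among them Emilin1 and Mbtps2. Of 17 tested 4 (23.5%) were higher and 3 (17.6%) lower, against 9.05% and 10.3% of all genes tested. The median log2 fold change was 0.23. Txndc5, a disulfide isomerase of the endoplasmic reticulum, rose by 0.48 ± 0.10 (adjusted p = 0.00706), and Colgalt1, which adds galactose to hydroxylysine, by 0.40 ± 0.10 (0.0126, and 0.0898 without W4). Fkbp10, a prolyl isomerase that works with Plod2, rose by 0.35 ± 0.10 (0.0316), and Mbtps2, a membrane protease, by 0.35 ± 0.11 (0.0488). Emilin1, a secreted glycoprotein of elastic fibres, fell by 0.55 ± 0.13 (0.0106, and 0.0790 without W4), and the prolyl isomerases Fkbp7 and Fkbp14 fell by 0.49 ± 0.15 (0.0370) and 0.40 ± 0.11 (0.0260). The number higher was 7 without C2, 2 without C3 or W5, 1 without W4, and 2 with library size scaling. The number lower was 1 without C1 or W5 and 0 without W4.

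General folding genes of the endoplasmic reticulum also went both ways. Of 22 tested 3 (13.6%) were higher and 4 (18.2%) lower, against 9.05% and 10.3% of all genes tested (median log2 fold change 0.02). Ero1a, the oxidase that recharges protein disulfide isomerases such as P4hb, rose from 565, 546 and 582 CPM to 1143, 1143 and 1074 CPM (log2 fold change 0.99 ± 0.09, adjusted p = 6.40e-05). Hspa5, the chaperone BiP, rose by 0.59 ± 0.10 (0.00137), and the thioredoxin-related Tmx1 by 0.52 ± 0.12 (0.0124). Dnajb11, a cochaperone of BiP, fell by 0.53 ± 0.13 (0.0111, and 0.0855 without W4), Hsp90b1, the chaperone GRP94, by 0.36 ± 0.10 (0.0277), and Pdia3 and Dnajc3 by 0.33 ± 0.10 (0.0391) and 0.32 ± 0.10 (0.0433). The number lower was 2 without C1 or W5, 1 without C3 or W6, and 0 without W4.

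Genes of procollagen export showed few calls. Of 21 tested 0 were higher and 1 (4.76%) lower, against 9.05% and 10.3% of all genes tested. The median log2 fold change was 0.07. At an unadjusted p below 0.05 (edgeR) 3 were higher and 2 lower, against 4551 of all 14190 genes tested in either direction. With DESeq2 1 was higher, and with limma-voom 0. Sec24c, a subunit of the coat of export vesicles, fell by 0.34 ± 0.10 (adjusted p = 0.0382), and its call was lost when any library but C2 was left out (0.0716 to 0.150) and without the low-count filter (0.0542). Without C1 the count was 1 higher and 0 lower.

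Procollagen chains were mostly higher. Of 13 tested 8 (61.5%) were higher and 1 (7.69%), Col3a1, was lower, against 9.05% and 10.3% of all genes tested. The median log2 fold change was 0.43. Col5a3 and Col11a1, minor fibrillar chains, rose by 1.15 ± 0.13 and 1.01 ± 0.12 (adjusted p = 1.44e-04 and 2.64e-04). The number higher was 5 without C1, C3 or W5 and 4 without W4, and the number lower was 0 without W4.

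**Figure D5:**
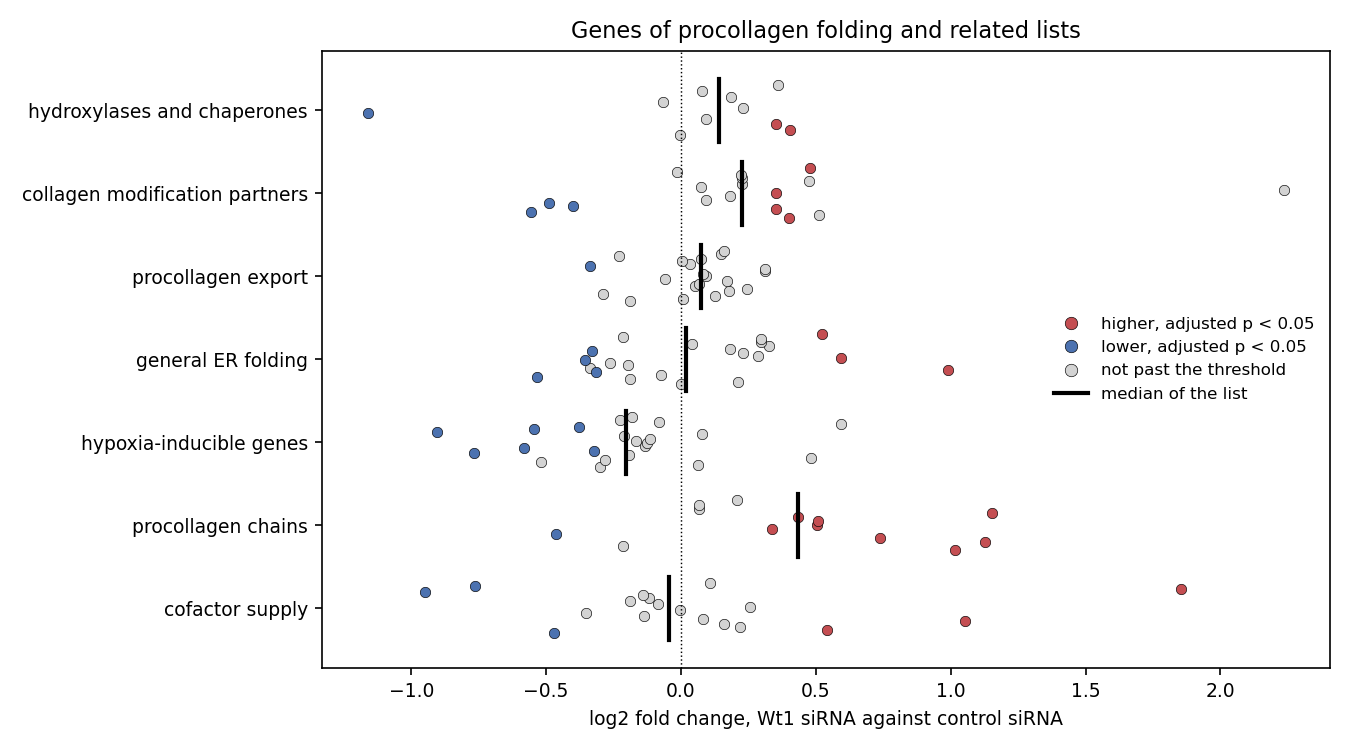
Log2 fold change (Wt1 siRNA against control siRNA) of each tested gene of the 10 hydroxylases and chaperones and of 6 related lists; colours mark genes past the threshold and black bars the list medians. Medians run from -0.20 for hypoxia-inducible genes to 0.43 for procollagen chains, with 0.14 for the hydroxylases and chaperones.

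Genes with the most similar profile were searched for each gene that passed, by the Euclidean distance of log2 CPM, centred on the mean, over the 6 libraries. The nearest to P4ha3 were B4galt6, a galactosyltransferase of glycolipid synthesis (distance 0.194, log2 fold change -1.11 ± 0.17), and the zinc finger gene Zfp758 (0.196, -1.23 ± 0.23). The nearest to P4ha1 were Gsn, the actin-severing protein gelsolin (distance 0.0593, log2 fold change 0.38), and Coro1c, an actin-binding coronin (0.0615, 0.38). The nearest to P3h1 were Shmt2, the mitochondrial serine hydroxymethyltransferase (distance 0.0882, log2 fold change 0.38), and Serpinh1 (0.115). Gsn, Coro1c and Shmt2 passed (adjusted p = 0.0345, 0.0341 and 0.0463). They did not pass without C1 (0.109, 0.109 and 0.148), C3 (0.101, 0.102 and 0.144), W4 (0.130, 0.125 and 0.156) or W5 (0.134, 0.127 and 0.128), nor with library size scaling (0.0682, 0.0714 and 0.101), and Shmt2 also not without W6 (0.0687). These genes were picked for their likeness to P4ha1 and P3h1, so the shared losses follow from that choice.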

How the data were processed

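The authors deposited raw whole-number counts of reads per Entrez gene, 1 column per library, without normalization. Per the submitters' processing notes, the tools were TopHat, DESeq, bcl2fastq and CASAVA 1.8 and the build was mm10 (GRCm38), with no role or order stated. The sources used here give no counting tool, annotation or strand setting. Symbols and positions come from RefSeq GRCm38.p6 (23976 of 24061 IDs matched) and transcript lengths from GENCODE M21.

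The test was edgeR 4.0.16 (R 4.3.3) with TMM normalization, filterByExpr and siRNA group as the only term; DESeq2 1.42.0, limma-voom (limma 3.58.1), RLE factors, scaling by library size, robust shrinkage, no or a stricter low-count filter (mean of 1 CPM) and leaving out each library were alternatives. The SE of a log2 fold change is its size divided by the square root of F. Log2 CPM used a prior count of 2. Ratios used exact two-sided permutation tests over libraries. In simulated counts for 14190 genes 200 were changed in each of 3 simulations. There the test recovered 23.4% of 1.5-fold, 67.2% of 2-fold and 88.4% of 4-fold changes, and 7.27% of calls were false. In the data 2743 genes were called, and the p cutoff of the adjustment depends on how many genes change. The simulated rates therefore need not hold for the data. Chi-square per degree of freedom was 18.9 to 70.9 for pairs within a group, so that within-group pairs differed by more than counting noise; repeat preparations from 1 culture would do so too. Per library, 3 counts are worth 0.0926 to 0.113 CPM.

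The members and lists were chosen with earlier results of these data known. Named genes are the 10 members, Wt1, Col1a1, Col1a2, in each list up to 3 called genes taken in order of p, and the 2 nearest profiles of each called member among symbols that are no clone or predicted-gene name and whose mean log2 CPM reached 2. Ppib, Znhit1, Gm38391, Fkbp10, Mbtps2, Fkbp7, Fkbp14, Tmx1, Hsp90b1, Pdia3, Dnajc3, Col3a1, Slc23a2 and the single cell type markers, with those left out of the marker sums, were named after their values were seen. The same holds for Hif1a, Epas1, Col4a1, Col4a2, Col5a1, Col5a2, Col6a1, Col6a2, Col6a3 and Col12a1.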

Additional observations from a re-analysis of the deposited data

How the results depend on the processing

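The direction and call of P4ha3 held under all 13 alternatives, as did the lower count of 1. With library size as the only scaling, 855 genes were higher and 1829 lower in place of 1284 and 1459, and 0 members were higher in place of 2. With 1 library left out, 578 to 1253 genes were higher, 785 to 1406 lower, and 0 to 3 members higher; the fewest calls, 578 and 785, came without W4. The cause was not tested. P4ha1 lost its call under 5 alternatives and P3h1 under 6, and Serpinh1 gained one under 6, all with the same direction. Near 0 the sign of the log2 fold change varied: Plod1 ranged from -0.14 to 0.0606, Plod3 from -0.0141 to 0.239 and Crtap from -0.14 to 0.11 with a library left out; Plod3 was at -0.00492 with library size scaling and Crtap at 1.55e-04 without the low-count filter. The share of Plod3 changed by -1.58 to 0.523 percentage points with a library left out, and the log2 ratio of P4hb to summed P4ha by -0.0390 to 0.0368. No other ratio changed sign with a library left out or with raw counts. No paired analysis was possible because the groups share no replicate numbers.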

Other observations

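Cofactor supply is a further side of hydroxylation. Of 18 genes of ascorbate, iron and 2-oxoglutarate supply 3 were higher and 3 lower (edgeR), 16.7% each. Of all genes tested 9.05% were higher and 10.3% lower. The median log2 fold change of the 18 was -0.05. Slc40a1, the iron exporter ferroportin, rose from 7.70 ± 0.697 to 27.8 ± 1.51 CPM (1.85 ± 0.15, adjusted p = 2.20e-05, n = 3). Gpt2, a mitochondrial transaminase that makes 2-oxoglutarate, rose from 22.1 ± 2.37 to 45.9 ± 4.04 CPM (1.05 ± 0.13, adjusted p = 2.94e-04). Slc39a14, an importer of zinc and iron, fell from 187, 175 and 197 CPM in the 3 controls to 85.9, 81.7 and 122 CPM (log2 fold change -0.95 ± 0.15, adjusted p = 0.00103). Without W4 1 gene was lower and 2 were higher; without C1 or C3, 2 were lower and 2 higher. The ascorbate transporter Slc23a2 had 55.8 and 48.9 CPM and did not pass (adjusted p = 0.506).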
